A study of Mus musculus with 4 samples.

Results

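Immune checkpoint and regulatory T cell genes were followed in lung tumours of mice without Nrf2 and of wild-type mice. The set was a list of gene names, with no threshold on any value: the inhibitory receptor genes Ctla4, Pdcd1, Tigit, Lag3 and Havcr2, the ligand gene Cd274, the costimulatory receptor gene Icos, and the regulatory T cell genes Foxp3, Ikzf2 and Il2ra. The list was chosen with earlier results of these data known. Its genes are 10 of the 35275 in the expression table, and all 10 were found there by symbol. Checkpoints are receptors and ligands that damp T cell activation, and tumours and myeloid cells can display the ligands. Regulatory T cells are CD4 T cells that restrain other immune cells, and they carry several of the same receptors at high density. In lung tumours both kinds of gene mark infiltrating lymphocytes, while PD-L1, the product of Cd274, is also made by epithelial and myeloid cells.

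The Nrf2 KO group (genotype Nrf2 -/-) and the WT group (Nrf2 +/+) each had 2 libraries of bulk tumour RNA, all from Balb/c mice. Nrf2 is the product of Nfe2l2 and switches on antioxidant and detoxifying genes. All mice had been given vinyl carbamate, a carcinogen that induces lung tumours, at 16 mg/kg. They received 2 or 4 injections, and tumours were taken out 40 to 44 weeks after the start. Each sample combined 3 to 4 tumours, so that a library is a mean over tumours, and the series counts 2 mice per genotype. The labels do not say how many doses or weeks any library had, the age at the start, or how the mutant allele was made. The question here is whether checkpoint and regulatory T cell transcripts differ between grown tumours that lack Nrf2 and those that have it.

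Values are FPKM, fragments per kilobase of gene scaled to the library total. KO libraries held 17.98 and 16.89 M reads (M stands for 1e6), against 21.66 and 21.22 M reads in WT libraries, as computed from the steps between values. Nfe2l2 had 3.66 and 2.96 FPKM in KO libraries, against 96.3 and 87.9 FPKM in WT libraries, which fits the labels. All 6 alveolar type 2 markers were present, with Sftpc (surfactant protein C) at 75159 to 90474 FPKM over the 4 libraries, and the tissue label thus matched its defining genes. The libraries also differed in blood and mitochondrial content. Haemoglobin genes summed to 1186 and 1084 FPKM in KO libraries and to 244 and 486 FPKM in WT libraries. Mitochondrial transcripts took 2.95% and 2.26% of KO reads, against 1.39% and 1.72% of WT reads. The part of these differences in the results was not tested.

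No member passed the test across all genes. In limma, on log2(FPKM + 1) with Benjamini-Hochberg adjustment over 13147 genes at or above 1 FPKM in at least 2 libraries, 0.114% of genes were called (15 genes, 10 higher and 5 lower in KO), and 0 of the 6 members fitted were among them. In that fit 2 members, Lag3 and Il2ra, had an unadjusted p under 0.05 with a higher level in KO, beside 8.36% of all genes fitted. Both of these, and Icos, had passed the filter only through their KO libraries. A voom fit of limma on recovered whole reads, which kept every gene with at least 10 reads summed over the 4 libraries whatever the genotype, held all 10 members. It called 0.041% of its 17054 genes (7 genes) and 0 members. In the voom fit 7 members were higher in KO at an unadjusted p under 0.05, beside 8.03% of all genes. Without KO 2 that count was 2 of 10 (Foxp3 and Tigit), beside 5.47% of all genes. It was 7 without KO 1, beside 9.27%, 5 without WT 1, beside 6.77%, and 4 without WT 2, beside 6.12%. Each of these fits leaves a genotype with 1 library, which is assumed to vary like the libraries of the other genotype. For a gene taken alone, the exact permutation test (two-sided, 2 against 2) has 0.333 as its smallest p.

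In levels, 8 members lay higher in both KO libraries than in either WT library, beside 24.4% of genes with at least 10 summed reads. Ikzf2 lay lower in both KO libraries, as did 22.6% of genes, and only Cd274 overlapped among the members. KO 2 was the highest library for 8 of the 10 members. The lowest library was WT 2 for 5 members and WT 1 for 3. The number of members at or above 1 FPKM was 6 and 7 in KO libraries and 3 and 3 in WT libraries. Over the 10 members the median log2 difference of the voom fit, added after the data were seen, was 1.07, beside 0.02 over all its genes. In limma on log2(FPKM + 1) with no filter it was 0.46 over the 10 members, beside 0.01 over all genes.

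**Figure D1:**
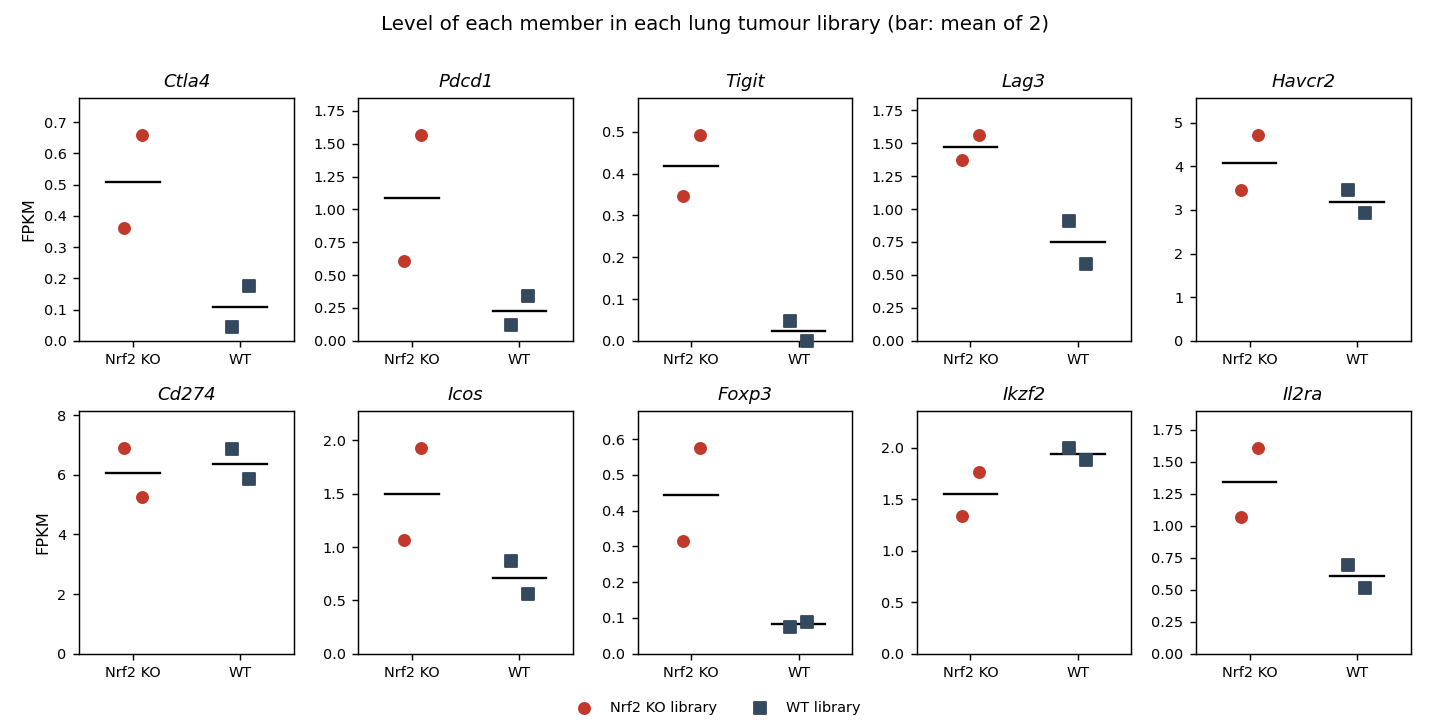
FPKM of the 10 members in each library, a panel per gene with its own linear axis from 0, KO points left of WT points and a bar at each group mean. Cd274, Havcr2 and Ikzf2 have the highest mean levels of the 10 genes in each genotype, while Ctla4, Tigit and Foxp3 lie under 1 FPKM in all 4 libraries.

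The order of the levels was much alike in the genotypes. Since FPKM is per length, the levels of different genes were set side by side. The gene lengths behind the values are not given, so close ranks are uncertain. Cd274 was first, Havcr2 second and Ikzf2 the third by mean FPKM in KO and in WT tumours. Icos, Lag3 and Il2ra followed in KO tumours at means of 1.50, 1.47 and 1.34 FPKM, and their ranges over the libraries overlapped. In WT tumours the same genes came in the order Lag3, Icos and Il2ra, at means of 0.747, 0.712 and 0.606 FPKM, again with overlapping ranges. Pdcd1, Ctla4, Foxp3 and Tigit closed the order in both genotypes. Pdcd1 lay below the range of Il2ra in WT tumours and overlapped with it in KO tumours. Neighbours among the last 4 overlapped in range, except Foxp3 and Tigit in WT tumours. Cd274 and Havcr2, and Havcr2 and Ikzf2, did not overlap in either genotype, while Ikzf2 overlapped with Icos in KO tumours.

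Among the inhibitory receptors, Tigit had the fewest reads. Tigit (chr16:43648867-43664146, minus strand) encodes a receptor of T and NK cells that binds the nectin-family ligands Pvr and Nectin2. It had 0.347 and 0.492 FPKM in KO libraries, against 0.0479 and 0 FPKM in WT libraries, from 6 and 8 reads against 1 and 0 reads. The groups did not overlap, and WT was at the limit of detection, where a library with 0 reads allows up to 3. Reads per library total were 17.2 times those of WT (the ratio of read rates), with an exact 95% counting interval of 2.62 to 728, so that its size is poorly known. In limma's voom fit the log2 difference was 3.40 ± 0.84 (SE), with an adjusted p of 0.190.

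Ctla4 (chr1:60887000-60915832, plus strand) encodes CTLA-4, which competes with CD28 for the B7 ligands and is held in store by regulatory T cells. It had 0.361 and 0.658 FPKM in KO libraries, from 7 and 12 reads, against 0.0428 and 0.175 FPKM in WT libraries, from 1 and 4 reads. Both KO libraries were above both WT libraries, all at low counts. KO tumours averaged 0.510 ± 0.210 FPKM and WT tumours 0.109 ± 0.0933 FPKM (SD, n = 2 each). Its ratio of read rates was 4.67 (95% counting interval 1.69 to 16.0), and the voom log2 difference in limma was 2.19 ± 0.77 (SE), adjusted p = 0.274. The gene's span overlaps a ribosomal protein pseudogene, Rpl18-ps1, listed at no more than 0.106 FPKM in any library.

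Pdcd1 (chr1:94038305-94052553, minus strand) encodes PD-1, the receptor of PD-L1 that recruits phosphatases to the T cell receptor. It had 0.605 and 1.56 FPKM in KO libraries, from 21 and 51 reads, against 0.120 and 0.342 FPKM in WT libraries, from 5 and 14 reads. The groups did not overlap, but KO 2 was well above KO 1 and WT 2 well above WT 1. Means were 1.08 ± 0.678 FPKM in KO and 0.231 ± 0.157 FPKM in WT (SD, n = 2 each). In read rates KO stood at 4.66 times WT (95% counting interval 2.78 to 8.18). The voom log2 difference in limma was 2.19 ± 0.71 (SE), adjusted p = 0.251.

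Lag3 (chr6:124904361-124911705, minus strand) encodes a CD4-like receptor for MHC class II. It had 1.37 and 1.56 FPKM in KO libraries, against 0.913 and 0.582 FPKM in WT libraries. The groups did not overlap and the spread within KO was small. The KO read rate was 1.96 times that of WT (95% counting interval 1.29 to 3.00). In limma on log2(FPKM + 1) the difference was 0.50 ± 0.18 (SE), adjusted p = 0.281, and in the voom fit 0.99 ± 0.38 with an adjusted p of 0.303.

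Havcr2 (chr11:46454935-46481255, plus strand) encodes TIM-3, a receptor of exhausted T cells that macrophages and dendritic cells also carry. It had 3.453 and 4.71 FPKM in KO libraries, against 3.446 and 2.93 FPKM in WT libraries. KO 1 and WT 1 were all but equal, and KO 2 alone stood above. Summed over libraries, the KO read rate was 1.27 times that of WT (95% counting interval 1.10 to 1.48), and limma gave a log2 difference of 0.27 ± 0.17 (SE), adjusted p = 0.502. The counting intervals here and above cover counting error only, not the spread between mice.

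**Figure D2:**
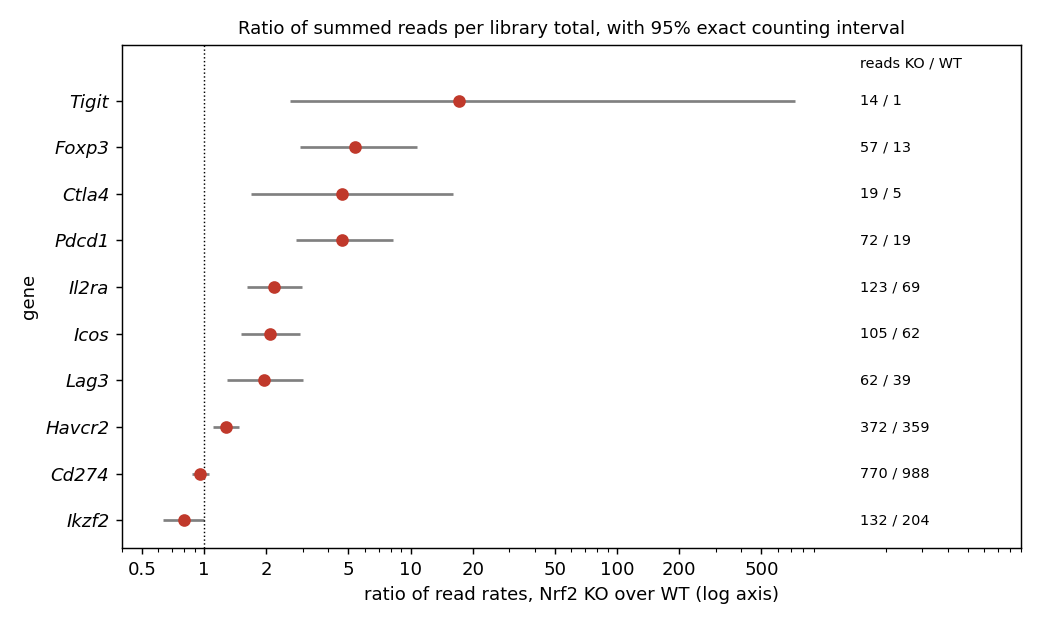
Ratio of read rates, Nrf2 KO over WT, for each member on a log axis, with its exact 95% counting interval and a line at equal rates. The intervals of Ctla4, Pdcd1, Tigit and Foxp3 lie well above equality but are wide, those of Lag3, Icos and Il2ra lie near 2, and that of Cd274 (0.871 to 1.05) spans it.

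The ligand did not share that direction. Cd274 (chr19:29367455-29388095, plus strand) encodes PD-L1, which engages PD-1 and is induced by interferon-gamma in many cells. It had 6.90 and 5.25 FPKM in KO libraries, from 449 and 321 reads, against 6.86 and 5.85 FPKM in WT libraries, from 538 and 450 reads. KO 1 was the highest and KO 2 the lowest of the 4, so that the groups overlapped fully. KO tumours averaged 6.07 ± 1.17 FPKM and WT tumours 6.36 ± 0.709 FPKM (SD, n = 2 each). Read rates gave a ratio of 0.958 (95% counting interval 0.871 to 1.05), and limma gave -0.06 ± 0.16 (SE), adjusted p = 0.885. The sign turned when KO 2 or WT 1 was left out, so no direction can be given. The KO libraries, at 6.90 and 5.25 FPKM, lay further apart than the group means, at 6.07 and 6.36 FPKM. An antisense transcript is annotated across the gene, and whether counting used strand is not given.

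Icos (chr1:60977927-61000320, plus strand) encodes a costimulatory receptor of activated and regulatory T cells. It had 1.07 and 1.93 FPKM in KO libraries, against 0.866 and 0.558 FPKM in WT libraries. The groups did not overlap, with KO 1 nearer to WT 1 than to KO 2. Icos read rates had a KO to WT ratio of 2.08 (95% counting interval 1.51 to 2.90), and limma gave a log2 difference of 0.53 ± 0.23 (SE), adjusted p = 0.345, and in the voom fit 1.03 ± 0.41 with an adjusted p of 0.314. Icos lies 62.1 kb from Ctla4 on chromosome 1, and Cd28 lies 114 kb on the other side of Ctla4, with 0 protein-coding genes between neighbours. Cd28, the activating receptor that CTLA-4 opposes, had 0.442 and 0.732 FPKM in KO libraries and 0.306 and 0.375 FPKM in WT libraries, also without overlap.

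Foxp3 (chrX:7573644-7595245, plus strand) encodes the transcription factor that defines regulatory T cells. It had 0.315 and 0.575 FPKM in KO libraries, from 21 and 36 reads, against 0.0747 and 0.0890 FPKM in WT libraries, from 6 and 7 reads. The WT libraries were close to each other, and both KO libraries stood above them. Means were 0.445 ± 0.184 FPKM in KO and 0.0819 ± 0.0101 FPKM in WT (SD, n = 2 each). The ratio of read rates was 5.39 (95% counting interval 2.92 to 10.7). In limma's voom fit the log2 difference was 2.29 ± 0.54 (SE), adjusted p = 0.183, the lowest adjusted p of the 10 members. The span overlaps Ppp1r3f on the other strand, which had 1.78 and 1.32 FPKM in KO and 1.20 and 1.94 FPKM in WT and did not separate the groups. Flicr, a noncoding transcript on the same strand, was at or under 0.0673 FPKM in every library. Reads of overlapping genes cannot be told apart where strand was not used.

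The other regulatory T cell genes split. Il2ra (chr2:11642807-11693193, plus strand) encodes CD25, the chain that gives the interleukin-2 receptor its high affinity. It had 1.07 and 1.61 FPKM in KO libraries, against 0.696 and 0.515 FPKM in WT libraries, without overlap. The ratio of read rates was 2.19 (95% counting interval 1.62 to 2.99), and limma gave 0.53 ± 0.19 (SE), adjusted p = 0.284, and in the voom fit 1.11 ± 0.34 with an adjusted p of 0.238. Ikzf2 (chr1:69531214-69687245, minus strand) encodes Helios, a transcription factor of thymus-derived regulatory T cells that other cells also express. It had 1.34 and 1.76 FPKM in KO libraries, against 2.00 and 1.88 FPKM in WT libraries. Ikzf2 was thus the only member lower in both KO libraries, with a ratio of read rates of 0.796 (95% counting interval 0.634 to 0.995). In limma its log2 difference was -0.21 ± 0.16 (SE), adjusted p = 0.584. Foxp3 and Ikzf2, both Treg transcription factors, therefore stood on opposite sides of WT, and neither passed.

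The members are lymphocyte genes for the most part, so their levels were set beside T cell markers. In bulk tumours fewer cells of a type and less RNA per cell cannot be told apart. The summed FPKM of Cd3d, Cd3e and Cd3g, the invariant chains of the T cell receptor complex, was 12.8 and 16.3 in KO libraries and 7.24 and 5.27 in WT libraries, a ratio of means of 2.33. Of these chains Cd3g differed most between the WT libraries, with 4.41 and 1.96 FPKM, against 6.95 and 9.87 FPKM in KO. Cd3e had 3.49 and 3.75 FPKM in KO and 2.03 and 2.17 FPKM in WT. All 15 T cell markers lay higher in both KO libraries, 14 of them at an unadjusted p under 0.05 in the voom fit of limma, and 0 were called by either fit. The shares over all genes of the voom fit were 24.4% and 8.03%. The 15 markers summed to 55.1 and 59.8 FPKM in KO libraries and to 25.9 and 24.9 FPKM in WT libraries, with none at 0. Cd4 had 2.33 and 3.34 FPKM in KO libraries and 1.23 and 0.969 FPKM in WT libraries. Cd8a stayed under 1 FPKM throughout, at 0.214 and 0.304 FPKM in KO and 0.178 and 0.0756 FPKM in WT.

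As a percentage of the summed Cd3 level, the members differed from each other. Foxp3 came to 2.46% and 3.52% in KO libraries, against 1.03% and 1.69% in WT libraries, a ratio of means of 2.19 without overlap. Tigit came to 2.70% and 3.01% in KO libraries, against 0.663% and 0% in WT libraries, from the few reads given above. These were the members still higher in both KO libraries relative to the Cd3 sum, a split that depends on the chain, as given below. Ctla4 was at 2.81% and 4.03% in KO libraries and at 0.591% and 3.32% in WT libraries, and its groups now overlapped. Pdcd1 was at 4.72% and 9.57% in KO and at 1.65% and 6.49% in WT, again with overlap. For both genes WT 1 was the lowest library and WT 2 lay within the KO range. Il2ra was at 8.33% and 9.83% in KO and at 9.62% and 9.78% in WT. Icos was at 8.34% and 11.8% in KO and at 12.0% and 10.6% in WT. For Icos and Il2ra the groups overlapped relative to the Cd3 genes. Lag3, at 10.7% and 9.55% in KO against 12.6% and 11.1% in WT, was slightly lower relative to Cd3 in KO. WT 2 had the least Cd3g, and these relations depend on the chain. Against Cd3e alone, Ctla4 and Pdcd1 also lay higher in both KO libraries, and the Lag3 groups overlapped. Against Cd3g alone, Foxp3 did not separate the groups. It had 21 reads beside 72 of Cd3g in KO 1, level with 7 beside 24 in WT 2.

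Havcr2, Cd274 and Ikzf2, which other cells also express, were lower on this scale, as Lag3 was. Their KO to WT ratios of mean FPKM were 1.28, 0.955 and 0.799, under the 2.33 of the Cd3 sum. Lower percentages thus follow from the division. Havcr2 came to 26.9% and 28.8% of Cd3 in KO libraries and to 47.6% and 55.5% in WT libraries. Cd274 came to 53.7% and 32.1% in KO and to 94.8% and 111% in WT. Ikzf2 came to 10.4% and 10.8% in KO and to 27.6% and 35.7% in WT, the member with the lowest KO to WT ratio of means, 0.335. Set against Cd4 alone in place of the Cd3 genes, Foxp3 was at 13.5% and 17.2% in KO and at 6.07% and 9.19% in WT, again without overlap. Il2ra on that scale was at 45.9% and 48.2% in KO and at 56.6% and 53.2% in WT, lower in both KO libraries, where against Cd3 its groups overlapped. The other 8 members kept the relation they had against Cd3. These percentages carry no test, and the part of T cell content in the members' levels was not tested beyond them.

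**Figure D3:**
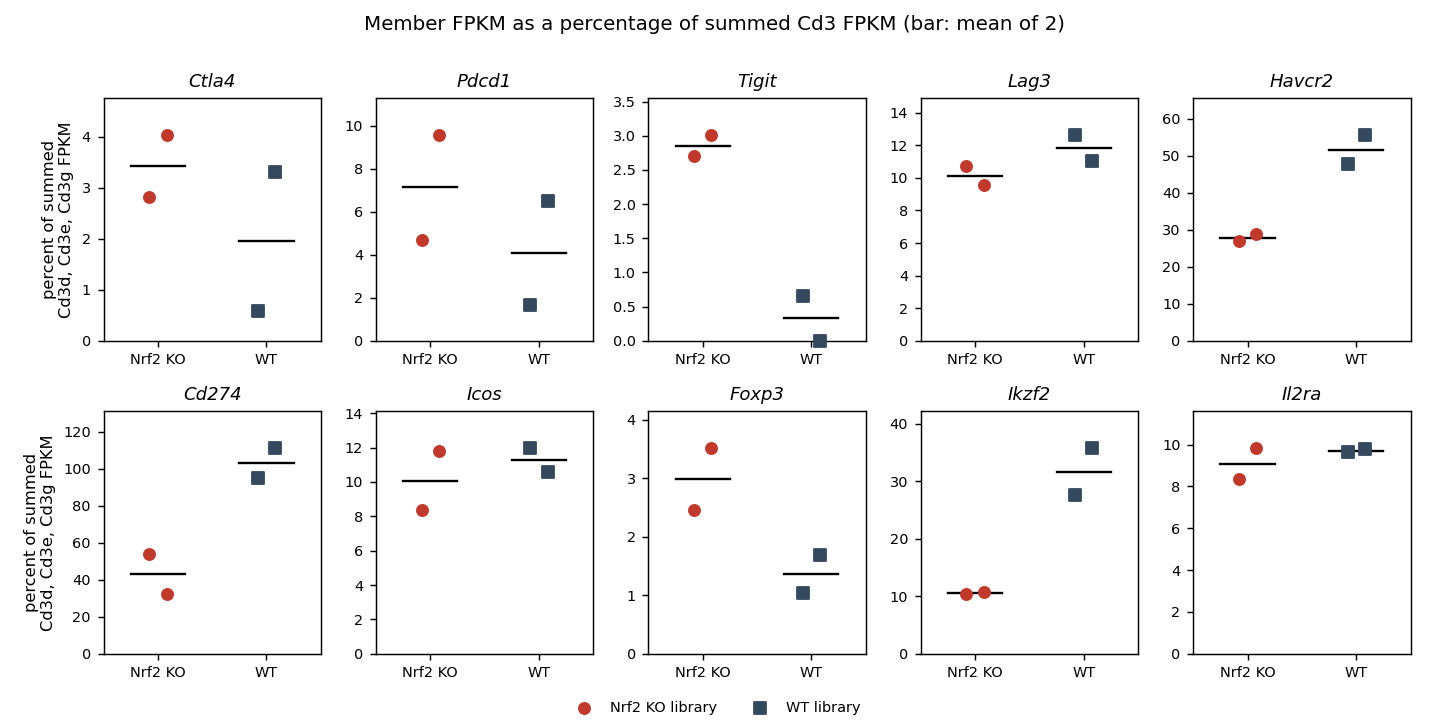
FPKM of each member as a percentage of the summed Cd3d, Cd3e and Cd3g FPKM of the same library, with a panel per gene, a linear axis from 0, KO points left of WT points and a bar at each group mean. Foxp3 and Tigit lie higher in both KO libraries, while Havcr2, Cd274, Ikzf2 and Lag3 lie lower, and Tigit is at 0 in WT 2.

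Promoter stretches are shown for the members with the largest ratios of read rates and for Cd274, since Nrf2 acts through the antioxidant response element and interferon-gamma through the gamma-activated site. RefSeq windows on GRCm38.p6 were found for 7 of the 10 members, 8 windows in all, each reaching from 250 bases before the annotated start to 50 bases after it. RefSeq starts can differ from the ends of the GENCODE spans given above. The windows were searched on both strands for the core of the antioxidant response element, TGACNNNGC, and for the gamma-activated site, TTCNNNGAA. Of 32851 promoter windows, 12.4% held the antioxidant core and 8.3% the gamma-activated site. The 250 bases before the start follow, 5′ to 3′ on the gene's strand, in lower case with a match in capitals. The window of Tigit is chr16:43664185-43664434 on the minus strand, the second of the Foxp3 windows is chrX:7580233-7580482 on the plus strand, that of Ctla4 is chr1:60908775-60909024 on the plus strand, that of Pdcd1 is chr1:94052554-94052803 on the minus strand and that of Cd274 is chr19:29367188-29367437 on the plus strand.
Tigit: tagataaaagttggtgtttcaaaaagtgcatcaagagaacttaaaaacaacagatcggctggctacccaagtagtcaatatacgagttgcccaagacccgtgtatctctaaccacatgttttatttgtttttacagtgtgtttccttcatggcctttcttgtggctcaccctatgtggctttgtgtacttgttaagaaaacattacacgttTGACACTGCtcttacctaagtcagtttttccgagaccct
Foxp3: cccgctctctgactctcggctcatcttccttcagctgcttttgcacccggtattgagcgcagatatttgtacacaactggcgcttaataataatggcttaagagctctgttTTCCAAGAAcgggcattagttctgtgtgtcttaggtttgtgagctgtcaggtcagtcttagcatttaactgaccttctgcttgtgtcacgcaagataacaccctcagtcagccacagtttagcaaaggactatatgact
Ctla4: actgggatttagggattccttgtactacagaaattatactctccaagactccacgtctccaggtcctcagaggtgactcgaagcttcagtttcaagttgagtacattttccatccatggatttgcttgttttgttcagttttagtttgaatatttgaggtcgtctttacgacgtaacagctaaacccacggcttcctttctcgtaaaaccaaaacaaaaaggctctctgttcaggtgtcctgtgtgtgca
Pdcd1: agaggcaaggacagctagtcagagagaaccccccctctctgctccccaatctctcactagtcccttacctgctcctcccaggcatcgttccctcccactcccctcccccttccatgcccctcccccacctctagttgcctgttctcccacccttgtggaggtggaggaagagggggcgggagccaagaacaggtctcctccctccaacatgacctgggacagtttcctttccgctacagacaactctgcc
Cd274: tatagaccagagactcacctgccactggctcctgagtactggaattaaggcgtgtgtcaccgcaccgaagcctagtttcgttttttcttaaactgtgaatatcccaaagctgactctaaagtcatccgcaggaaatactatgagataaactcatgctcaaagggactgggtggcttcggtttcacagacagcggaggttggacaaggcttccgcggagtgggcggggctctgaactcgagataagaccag
In Tigit the antioxidant core begins at position -39 from the start, and in Foxp3 the gamma-activated site begins at position -139. The other 6 windows held neither set of letters. Among them was the first Foxp3 window, chrX:7579426-7579675, so the Foxp3 stretch shown is the one with a match. A match is a description of the sequence and not a binding site, and no match says only that these letters are not in the window.

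The ligands and partners of the members, a list of 26 genes, had 0 called by limma or by voom, and 7 were higher and 1 lower in KO at an unadjusted p under 0.05 among the 24 in the voom fit. In 16 of the 26 both KO libraries lay above both WT libraries, in 3 below, and in 7 the groups overlapped. Over all genes of the voom fit, 24.4% lay higher in both KO libraries and 22.6% lower. Of those genes 8.03% were higher in KO at an unadjusted p under 0.05. The median log2 difference in the voom fit was 0.23, beside 0.02 for all genes. The most abundant were Hmgb1, Lgals3 and Nectin2. Hmgb1, a nuclear protein that TIM-3 can bind, had 283 and 324 FPKM in KO libraries and 293 and 291 FPKM in WT libraries, with overlap. Lgals3, a galectin reported to bind LAG-3, had 177 and 172 FPKM in KO libraries and 145 and 159 FPKM in WT libraries, and limma gave 0.20 ± 0.11 (SE), adjusted p = 0.447. Nectin2, a TIGIT ligand, had 85.3 and 72.6 FPKM in KO and 80.0 and 94.9 FPKM in WT, with overlap. These ligands stood far above any of the receptors on the same FPKM scale.

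Some ligands and partners were picked after their values were seen. Il2rg, the common gamma chain of interleukin receptors, had the lowest voom adjusted p of the list in limma, 0.187, at 7.81 and 7.34 FPKM in KO libraries and 4.53 and 3.99 FPKM in WT libraries. Fgl1, a secreted LAG-3 ligand of liver, went the other way, at 1.19 and 1.04 FPKM in KO and 2.15 and 2.12 FPKM in WT (voom adjusted p = 0.194). The B7 genes Cd80 and Cd86, which feed CD28 and CTLA-4, had groups that did not overlap. Cd80 was at 1.31 and 1.53 FPKM in KO and at 0.570 and 0.831 FPKM in WT. Cd86 was at 3.63 and 4.22 FPKM in KO and at 2.04 and 2.44 FPKM in WT. Pdcd1lg2, the gene of PD-L2 that lies 22.8 kb from Cd274, had 0.879 and 1.44 FPKM in KO and 0.870 and 0.458 FPKM in WT, with KO 1 and WT 1 nearly equal.

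Of 21 other genes linked to regulatory T cells, 0 were called by either fit, and 8 were higher and 1 lower in KO at an unadjusted p under 0.05 among the 18 in the voom fit. Both KO libraries lay above both WT libraries for 13, below for 2, and 6 overlapped, with a median log2 difference of 0.68 in the voom fit. Beside these, 24.4% of all genes in that fit lay higher in both KO libraries and 22.6% lower. At an unadjusted p under 0.05, 8.03% of them were higher, and their median log2 difference was 0.02. The most abundant genes of this list are also made by vessels, myeloid cells and epithelium. Entpd1, the ectonucleotidase CD39, had 151 and 149 FPKM in KO libraries and 169 and 144 FPKM in WT libraries. Nrp1, a semaphorin and VEGF receptor, was the gene lower in KO at an unadjusted p under 0.05, at 83.9 and 89.2 FPKM against 120 and 100 FPKM in WT (limma -0.34 ± 0.13 SE, adjusted p = 0.291). Tgfb1 had 92.7 and 92.5 FPKM in KO and 81.7 and 88.7 FPKM in WT. The chemokine receptor genes Ccr8 and Ccr4, picked after their values were seen, were nearer to Foxp3 in level. Ccr8, a receptor of tumour Tregs, had 0.433 and 0.922 FPKM in KO and 0.160 and 0.163 FPKM in WT. Ccr4 had 0.339 and 0.680 FPKM in KO and 0.133 and 0.101 FPKM in WT. Il10 and Il12a, cytokine genes of regulatory T cells, had 0 reads in both WT libraries and 2 and 5 reads over both KO libraries, too few for a comparison.

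Transcription factors of T cell exhaustion and activation had a median difference close to that of all genes. Of 9 genes, 0 were called by either fit. In the voom fit 2, Tox2 and Nr4a3, were higher in KO at an unadjusted p under 0.05, beside 8.03% of all genes. In levels 3 were higher in both KO libraries, 0 lower and 6 overlapped, beside 24.4% of all genes higher and 22.6% lower, and the voom median log2 difference was 0.11 beside 0.02. Bcl6, Nr4a1 and Tcf7 were the most abundant. Bcl6 had 11.5 and 14.0 FPKM in KO libraries and 12.3 and 11.3 FPKM in WT libraries. Nr4a1 had 14.8 and 9.04 FPKM in KO and 11.1 and 13.2 FPKM in WT. Both genes overlapped between the genotypes. Tcf7, a factor of naive and progenitor T cells, had 3.80 and 3.91 FPKM in KO and 3.16 and 3.13 FPKM in WT. Tox, a factor of exhausted T cells picked after its values were seen, had 2.32 and 1.91 FPKM in KO and 2.10 and 2.17 FPKM in WT, with KO 1 and KO 2 on either side of both WT libraries. Tox2, picked after its values were seen, had 4.06 and 4.39 FPKM in KO and 1.51 and 1.15 FPKM in WT, with an adjusted p of 0.0846 in limma and 0.106 in the voom fit.

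The interferon-gamma axis, the main inducer of PD-L1, had a median log2 difference close to that of all genes. Of 13 genes 0 were called by either fit, and 0 of the 11 in the voom fit had an unadjusted p under 0.05. In 6 genes both KO libraries lay above WT, in 1 below, and in 6 the groups overlapped, with a voom median log2 difference of 0.09 beside 0.02. Among all genes of the voom fit 24.4% lay higher in both KO libraries and 22.6% lower. Jak1 had 86.4 and 116 FPKM in KO libraries and 114 and 88.8 FPKM in WT libraries. Ifngr1 had 78.1 and 85.4 FPKM in KO and 76.1 and 74.7 FPKM in WT. Irf1, a direct inducer of Cd274, had 50.1 and 48.5 FPKM in KO and 41.1 and 42.6 FPKM in WT, with a log2 difference of 0.23 ± 0.10 (SE) and an adjusted p of 0.345 in limma. Ifng itself had 6 reads over the KO libraries and 3 over the WT libraries, which is too few to compare.

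**Figure D4:**
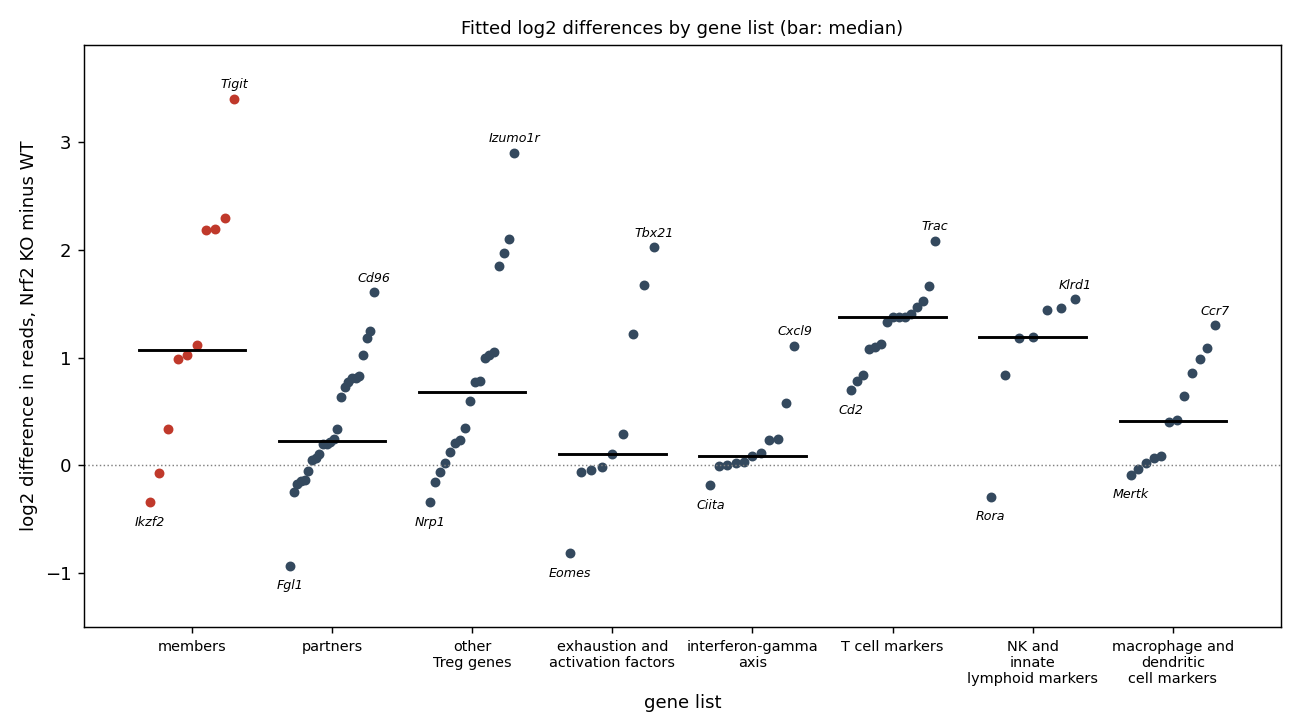
Log2 difference, Nrf2 KO minus WT, of every gene of each list in limma's voom fit on recovered reads, with a bar at each list's median. Members spread from -0.34 (Ikzf2) to 3.40 (Tigit), with T cell markers at a median of 1.37 and the interferon-gamma axis at 0.09.

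Markers of other cells that carry checkpoint genes were read in the same way. Of 12 macrophage and dendritic cell markers, 5 lay higher in both KO libraries, 0 lower and 7 overlapped, beside 24.4% of all genes higher and 22.6% lower. Their summed level was 191 and 217 FPKM in KO libraries and 193 and 164 FPKM in WT libraries, with none at 0 and the groups overlapping. The NK and innate lymphoid list had 6 of 8 genes higher in both KO libraries, with sums of 24.2 and 29.7 FPKM in KO and 27.1 and 23.5 FPKM in WT, and Klra8 was at 0 in all libraries. Rora, which other cells also make, held most of these sums, and without it they were 8.72 and 9.42 FPKM in KO, against 3.39 and 3.80 FPKM in WT. Of 6 B cell markers 5 lay higher in both KO libraries, and the sums were 29.6 and 22.5 FPKM in KO and 18.3 and 21.7 FPKM in WT. Among neutrophil markers 4 of 6 lay higher in both KO libraries, with sums of 89.6 and 90.8 FPKM in KO and 22.3 and 25.0 FPKM in WT, while Elane was at 0 in all libraries and Mpo in all but KO 1. In limma S100a8, S100a9 and Csf3r of this list rose (in the voom fit S100a8 missed, at an adjusted p of 0.0552), with adjusted p of 0.0108, 0.0260 and 0.0255 and log2 differences of 1.71, 2.04 and 1.41. All 6 erythroid markers lay higher in both KO libraries. The part of these cell types in the members' levels was not tested.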

How the data were processed

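RNA from pooled lung tumours was sequenced, and the deposited table gives FPKM per gene, a unit read from the values. The authors' tools TopHat2 and DESeq2 and the build mm10 are listed, neither a role nor a version being given, per the submitters' processing notes. Which program counted reads, its annotation, any filters and strand use are not given in the sources used. Whole reads were recovered for 21600 of 21601 genes above 0, by a search for a gene length that made the 4 values whole to within 0.0002 reads plus file rounding. Of those lengths 5488 are annotated ones, and the rest are the smallest that fitted, so reads may be undercounted. By annotated exon length, true reads could be up to 2 times as many for Ctla4 and Il2ra and 4 times for Ikzf2. More reads would narrow the intervals. For Tigit the fitted length of 963 bases exceeded the 919 annotated. The annotation used in counting thus differed there, and such limits are approximate. When 300 genes were disturbed by up to 1%, 0 gave whole reads. Reads carry no molecular identifiers.

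Groups came from the sample titles. Symbols and coordinates are from a GENCODE annotation of GRCm38 (34490 of 35275 identifiers matched), counted from 1. The comparison of Nrf2 KO with WT used log2(FPKM + 1) in limma 3.58.1 (R 4.3.3) with an intensity trend. It took genes that reached 1 FPKM in at least 2 libraries, with Benjamini-Hochberg adjustment over all of them and calls at an adjusted p under 0.05. The pseudocount understates fold changes of low genes. Residual degrees of freedom were 2, with a prior of 4.12. The design text speaks of 2 mice per genotype and the protocol of pooled tumours, and p-values measure the spread between these 4 samples. The members and lists were chosen with earlier results of these data known. All 10 members are named, and of the other lists up to 3 genes of highest mean FPKM and any called; others named beside them were chosen after their values were seen. The fit of limma's voom on recovered reads with at least 10 summed, its variants and the crossed pairing were added after the data were seen. Ratios of read rates have exact 95% conditional binomial intervals. Scripts were tested on simulated data. Other settings were pseudocounts of 0.1 and 10, quantile normalization, no trend, no filter, a stricter filter of 5 FPKM, an adjusted p under 0.1, the replicate number as a block, and each library left out.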

Additional observations from a re-analysis of the deposited data

How the results depend on the processing

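No member was called in any setting run; the lowest adjusted p was 0.0513, for Pdcd1, in limma's voom fit with a replicate block. The number of genes called, 15 in the fit on log2(FPKM + 1), was 65 at an adjusted p under 0.1, 8 with voom at the same filter, 7 with voom at 10 summed reads and 1 with no filter. It ran from 10 to 252 as each library was left out, the highest without KO 1, and from 12 (without KO 2) to 164 (without KO 1) in the voom fit, with 80 without WT 1. With a replicate block it was 69, and 245 with voom; same-numbered samples had deviations correlated at -0.306, so the shared numbers gave no pairing. A crossed pairing called 848 genes and 0 members. Of the 6 members fitted, Lag3, Icos and Il2ra passed the filter only through their KO libraries, so the filter itself raises their median. The members' median log2 difference, 0.39 over these 6, was 0.66 with voom and 0.62 and 0.0937 with pseudocounts of 0.1 and 10. Over all 10 it was 0.46 with no filter, 1.07 with voom at 10 summed reads and 1.09 with its replicate block. It turned to -0.0635 at an FPKM of 5, which leaves 1 member, and leaving out a library gave -0.0895 (without KO 1, 3 members) to 0.49, with 0.0922 without KO 2. In the voom fit it gave 0.81 to 1.43 (0.863 without KO 2, 1.33 without WT 1). Cd274 ran from -0.233 (without KO 1) to 0.106 as libraries were left out, positive without KO 2 (voom 0.122) and without WT 1 (0.0350, voom 0.0422). Each of the other members kept its direction in the settings that fitted it, 6 settings for Ctla4, Pdcd1, Tigit and Foxp3. The causes were not tested. Depth limits Tigit, Ctla4 and Foxp3 most, which have the fewest reads.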

Other observations

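Receptors that share ligands with the members were read beside them and were picked after their values were seen. Cd226, the activating rival of TIGIT for Pvr, had 1.02 and 0.869 FPKM in KO libraries and 0.509 and 0.288 FPKM in WT libraries. Cd96, another receptor of that ligand, had 0.815 and 0.434 FPKM in KO and 0.169 and 0.216 FPKM in WT. Pvr itself had 51.4 and 45.5 FPKM in KO and 52.0 and 54.2 FPKM in WT. Btla, an inhibitory receptor for Tnfrsf14, had 0.600 and 0.548 FPKM in KO and 0.356 and 0.174 FPKM in WT. For the 3 receptors both KO libraries lay above both WT libraries, with adjusted p of 0.333 for Cd226, 0.248 for Cd96 and 0.284 for Btla in limma's voom fit.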
